A study of Mus musculus with 12 samples.

Results

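The cytosolic ribosomal protein genes encode the protein subunits of the ribosome that translates mRNA outside mitochondria. They were taken as the genes whose symbol follows the Rpl or Rps naming scheme, with Rplp0, Rplp2 and Rpsa, leaving out pseudogenes and the S6 kinases. The rule found 49 of the 18194 mouse genes that had a probe set annotated to 1 gene only. Each gene was read from the probe set with the highest mean over the 12 arrays, and 45 of the 49 were bright enough to be tested. A further 110 probe sets list a ribosomal protein symbol together with other genes, and 28 symbols, among them Rpl5 and Rplp1, occurred only on such probe sets. Values of those 110 are given below as values of the probe set and were not used as a value of the gene.

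The arrays measured RNA of unfractionated marrow flushed from tibia and femur of mice lacking Fancc (Fancc-/-), mice lacking Fancg (Fancg-/-), mice lacking both (double knockout) and wild-type C57Bl/6 mice. By the labels there were 3 mice per genotype and 1 array per mouse, with no pooling. Where that holds, p-values measure the spread between these mice. Both genes belong to the core complex of the Fanconi anemia pathway, through which cells repair crosslinked DNA. The labels give no ages or sexes, no strain for the knockouts and no account of how the genes were disrupted. All signals are log2 values after the authors' RMA normalization, and a difference is a difference of group means on that scale. Signals of different probe sets are not comparable as amounts of RNA. Differences were tested with limma over 11907 genes, and a gene was called changed at a Benjamini-Hochberg adjusted p below 0.05.

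The labels were checked first. Fancg signal was 6.55, 6.00 and 6.64 on the arrays labelled Fancg-/- and 5.61, 5.83 and 5.78 in the double knockout, against 6.80, 6.86 and 6.86 in wild type. Arrays labelled Fancg-/- 1 and 3 were thus close to wild type. Fancc signal was 6.18, 6.04 and 5.96 in Fancc-/- marrow and 6.01, 5.79 and 5.57 in the double knockout, against 6.05, 5.90 and 6.18 in wild type. It was therefore not lower in Fancc-/- mice. Whether the probes lie in the deleted parts is not given in the sources used here. Y-linked Eif2s3y signal was 2.94 to 3.30 in Fancc-/- mice, 7.64, 9.09 and 5.78 on the arrays labelled Fancg-/-, and 8.81 to 9.35 for double knockouts, where wild-type arrays had 2.89 to 3.20. Kdm5d, also Y-linked, had 3.07 to 3.38 in Fancc-/- mice, 4.24, 5.22 and 3.35 on the arrays labelled Fancg-/-, and 5.32 to 5.67 for double knockouts, where wild-type arrays had 3.08 to 3.27. Xist, the RNA that silences an X chromosome in females, read 11.19 to 12.13 in Fancc-/- mice, 11.31, 7.34 and 10.75 on the arrays labelled Fancg-/-, and 6.00 to 7.39 for double knockouts, where wild-type arrays had 11.30 to 12.23. Double-knockout arrays carried male marks and wild-type and Fancc-/- arrays female marks, so genotype and sex cannot be told apart between double knockout and wild type or Fancc-/-, nor in the interaction. Arrays labelled Fancg-/- 1 and 3 carried both kinds of mark, and array 2 carried male marks. Whether arrays 1 and 3 each hold RNA of 1 mouse is therefore not known. They also enter the estimate of spread that all comparisons share. Each array labelled Fancg-/- had more Eif2s3y signal than every wild-type and Fancc-/- array. Genotype and sex are thus not cleanly separated in the comparisons with these arrays either. The mean of 10 neutrophil markers, the main cells of marrow, lay between 13.08 and 13.44 on every array, and 2 of the 10 fell in the double knockout, where all 10 differences from wild type were below 0.

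A ribosome consists of a small subunit, which reads the mRNA, and a large subunit, which joins the amino acids. Each subunit holds its proteins in fixed number, and cells that make much protein, such as dividing marrow progenitors, transcribe these genes heavily. Loss of 1 copy of some of these genes causes Diamond-Blackfan anemia in humans, a failure of red cell production. Many of these mRNAs begin with a C and a run of pyrimidines, through which their translation is regulated by nutrient signals.

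The start of the transcript is shown for the genes that the results below turn on, because that run is the feature these mRNAs are known for. The sequences are RefSeq starts on GRCm38.p6, read on the strand of the gene, from 10 bases before the annotated start through the first 20 bases of the transcript. Capitals mark a run of at least 6 C or T letters that opens with C, anywhere in that window.
Rpl12: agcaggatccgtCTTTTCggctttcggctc
Rpl37: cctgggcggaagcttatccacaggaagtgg
Rpl37a: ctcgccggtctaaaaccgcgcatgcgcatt
Rps15: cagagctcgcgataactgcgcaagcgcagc
Rps27: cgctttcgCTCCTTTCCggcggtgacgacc
Rps27l, start 1: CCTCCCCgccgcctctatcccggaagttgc
Rps27l, start 2: gggcttcagggtcactaacgggcctcgcag
The windows lie at chr2:32961702-32961731 (plus strand) for Rpl12, chr15:5116603-5116632 (plus) for Rpl37, chr1:72711250-72711279 (plus) for Rpl37a and chr10:80292421-80292450 (plus) for Rps15. Those of Rps27 and of the 2 annotated starts of Rps27l lie at chr3:90213629-90213658 (minus), chr9:66946076-66946105 (plus) and chr9:66946403-66946432 (plus). Each window takes in the beginning of the gene's exon 1. Starts listed on chromosomes other than those named are not shown. The run was searched on the transcribed strand only, and counts and comparisons by run used the first listed start of each gene. A run was found in 23 of the 43 ribosomal protein genes in the promoter table (53.5%), against 5958 of 27025 genes in that table (22.0%).

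Signals of most of these genes sat near the top of the array scale and varied little. Means over the 12 arrays were 10.95 to 13.90 for 36 genes and 6.29 to 8.51 for the other 9 (Rpl12, Rpl14, Rpl27a, Rpl37, Rpl39, Rpl7l1, Rps25, Rps27 and Rps6). A mean above 12 was reached by 34 of them, and by 1% of all 18194 genes, tested or not. Array medians lay between 4.79 and 4.87. The SD within a genotype had a median of 0.053 among the 36 bright genes and 0.20 among the 9 dim ones. Of those 9, 8 also had a probe set with a mean of 10 or more that lists their symbol beside other genes. The split at 10 was chosen after the values were seen.

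The least variable genes over the 12 arrays were Rps28 (SD 0.024), Rps24 (0.026), Rps7 (0.035), Rpl10a (0.036) and Rps29 (0.038). The most variable were Rpl12 (0.45), Rpl37 (0.33), Rps6 (0.28), Rpl14 (0.26) and Rpl7l1 (0.21), all of them dim. Rps6, the substrate of S6 kinase, read 8.75, 8.39 and 7.73 in Fancc-/- mice, 8.70, 8.47 and 8.47 on the arrays labelled Fancg-/-, and 8.48, 8.62 and 8.50 in the double knockout, against 8.73, 8.75 and 8.53 in wild type. Its lowest value was on Fancc-/- array 3. The same array was also lowest for Rpl14 (6.04, others 6.45 to 7.06) and Rpl7l1 (8.01, others 8.35 to 8.74), a large-subunit protein and a paralog of Rpl7.

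In Fancc-/- marrow, 2 of the 45 genes fell, Rpl12 and Rpl37, and 0 rose. Over all genes tested, 4.54% were called in this comparison, 2.36% lower and 2.18% higher. Genes read on the same arrays are not independent of each other. The differences of the 45 genes had a median of -0.054, with 35 below 0 and 10 above (48.3% of all genes were above 0). The median of all genes tested was -0.011. With arrays centred on their medians, the median of the 45 was 0.023. Centring moves the difference of every gene by the same amount, so the median of all genes moves with it. At an unadjusted limma p below 0.05 the count was 8 of 45, where 19.8% of all genes reached it. The median size of a difference was 0.059 in these genes and 0.17 in all genes. It was 0.056 among the 36 bright genes and 0.18 among the 9 dim ones. Whether signals near the top of the array scale understate differences in RNA was not tested, here or in the comparisons below. A small difference in a bright gene therefore does not show that its RNA was unchanged. Among the 36 bright genes, differences ran from -0.18 to 0.27, and their 95% intervals lay between -0.34 and 0.46.

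**Figure D1:**
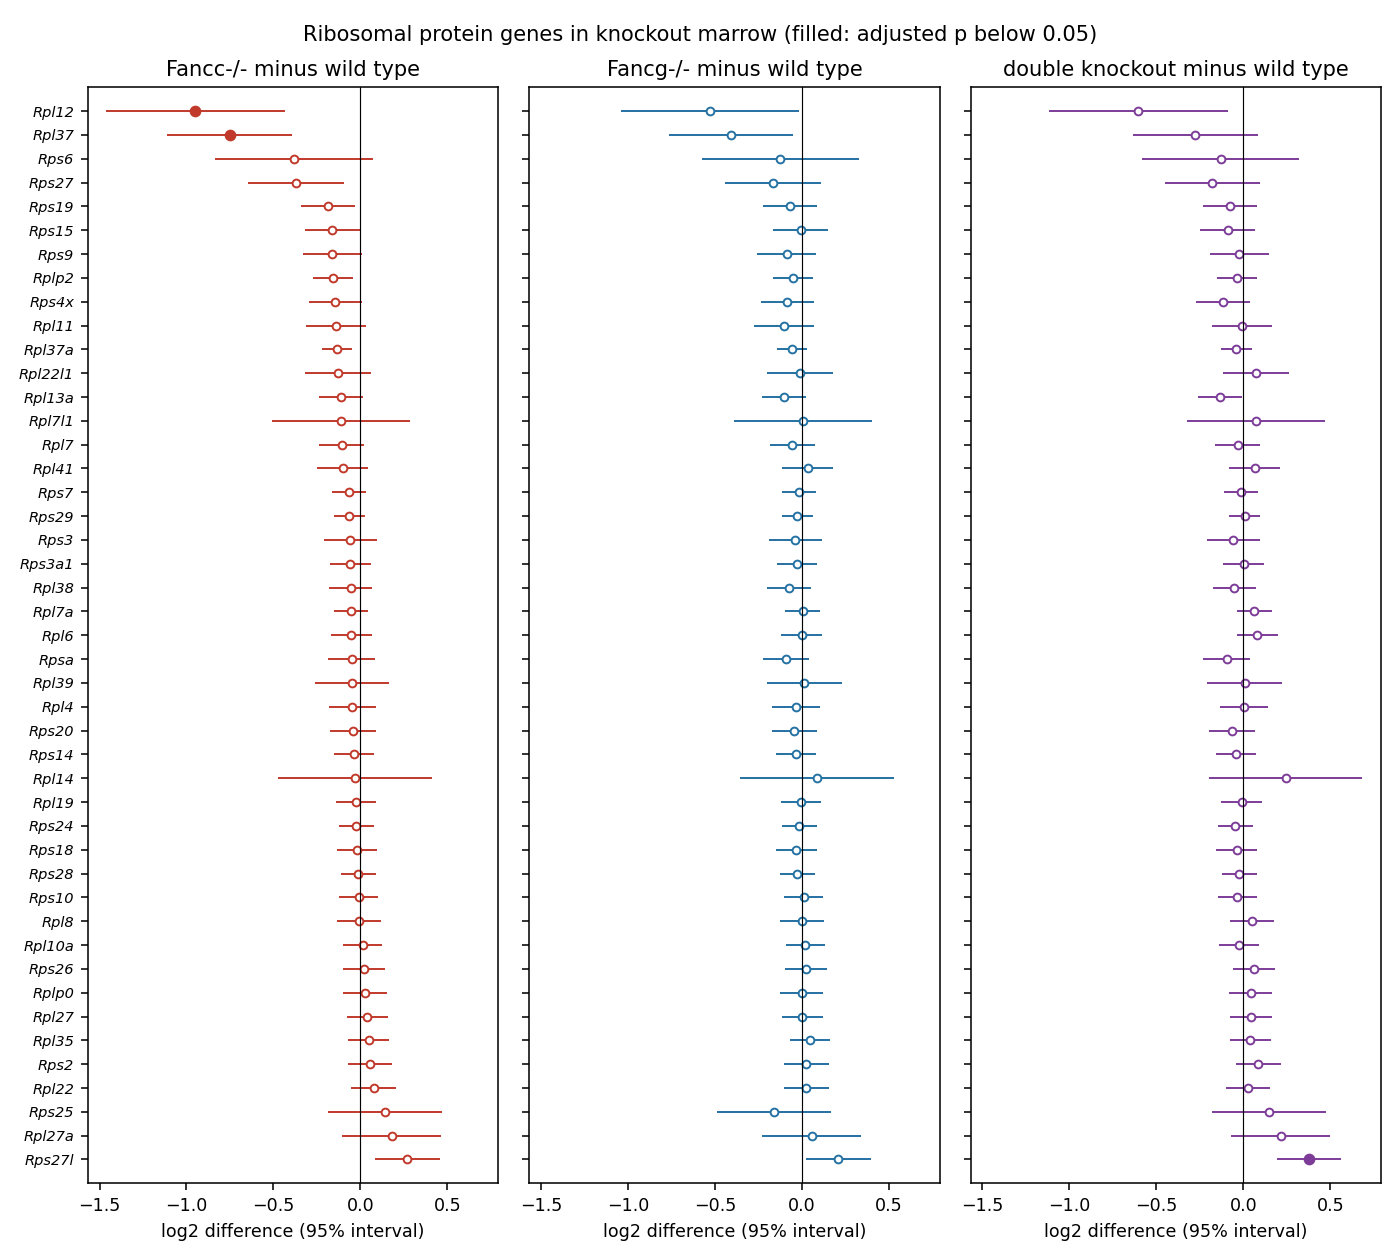
Log2 difference from wild type (horizontal axis) with its 95% interval for each of the 45 tested ribosomal protein genes, in Fancc-/-, Fancg-/- and double-knockout marrow from left to right, ordered by the Fancc-/- difference. Filled points passed the threshold: Rpl12 and Rpl37 in Fancc-/- marrow and Rps27l in the double knockout.

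Rpl12, a large-subunit protein at the base of the stalk where elongation factors bind, read 5.99, 6.08 and 5.52 in Fancc-/- mice, 6.29, 6.20 and 6.35 on the arrays labelled Fancg-/-, and 6.78, 5.79 and 6.05 in the double knockout, against 6.72, 7.10 and 6.61 in wild type. All Fancc-/- arrays and all arrays labelled Fancg-/- were below all wild-type arrays, while double-knockout array 1 lay among the wild-type ones. The Fancc-/- difference was -0.95 ± 0.24 (SE, n = 3 each), 0.518 of the wild-type signal, with a limma adjusted p of 0.0421. The other differences were -0.53 for the arrays labelled Fancg-/- (limma adjusted p = 0.686) and -0.60 for the double knockout (0.145). The Fancc-/- call was lost in 9 of 12 fits that each left out 1 array, whichever wild-type array was missing (limma adjusted p = 0.0866, 0.174 and 0.0864) and without Fancc-/- array 1 (0.0726) or 3 (0.104). It was also lost without array 1, 2 or 3 labelled Fancg-/- (0.0657, 0.0639 and 0.0593) or double-knockout array 3 (0.0585), where the difference itself stayed at -0.95. Without double-knockout array 1, the double-knockout difference was -0.89 and passed the threshold (limma adjusted p = 0.0108).

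Rpl37, a zinc-binding protein of the large subunit, read 7.42, 8.02 and 7.43 in Fancc-/- mice, 7.88, 7.98 and 8.03 on the arrays labelled Fancg-/-, and 7.94, 8.22 and 8.14 in the double knockout, against 8.26, 8.50 and 8.36 in wild type. All 9 arrays labelled as knockouts lay below all 3 wild-type arrays. Its difference was -0.75 ± 0.16 in Fancc-/- marrow (SE, n = 3 each; limma adjusted p = 0.0253), 0.594 of the wild-type signal. It was -0.41 for the arrays labelled Fancg-/- (limma adjusted p = 0.63) and -0.28 in the double knockout (0.339). The call was lost without wild-type array 2 (limma adjusted p = 0.108) or 3 (0.0863), or without Fancc-/- array 1 (0.0753) or 3 (0.0555). It was 0.0658 without arrays 1 and 3 labelled Fancg-/-, a fit in which Rpl12 had 0.0951 and 0 ribosomal protein genes passed.

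For both symbols, brighter probe sets that also list other genes did not pass. A probe set listing Rpl12 read 12.98, 12.96 and 13.03 in Fancc-/- mice, against 13.15, 13.09 and 13.07 in wild type. Its difference was -0.11 (adjusted p = 0.221, from a limma fit of all 23619 probe sets above the filter), and that of the other one was -0.073 (0.686). A probe set listing Rpl37 read 13.21, 13.24 and 13.23 in Fancc-/- mice, against 13.25, 13.20 and 13.16 in wild type. Its Fancc-/- difference was 0.019 (limma adjusted p = 0.849), and the other probe sets listing Rpl37 differed by 0.067 and 0.056. In that fit of probe sets, the single-gene probe set of Rpl37 had an adjusted p of 0.0335 and that of Rpl12 one of 0.0552.

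**Figure D2:**
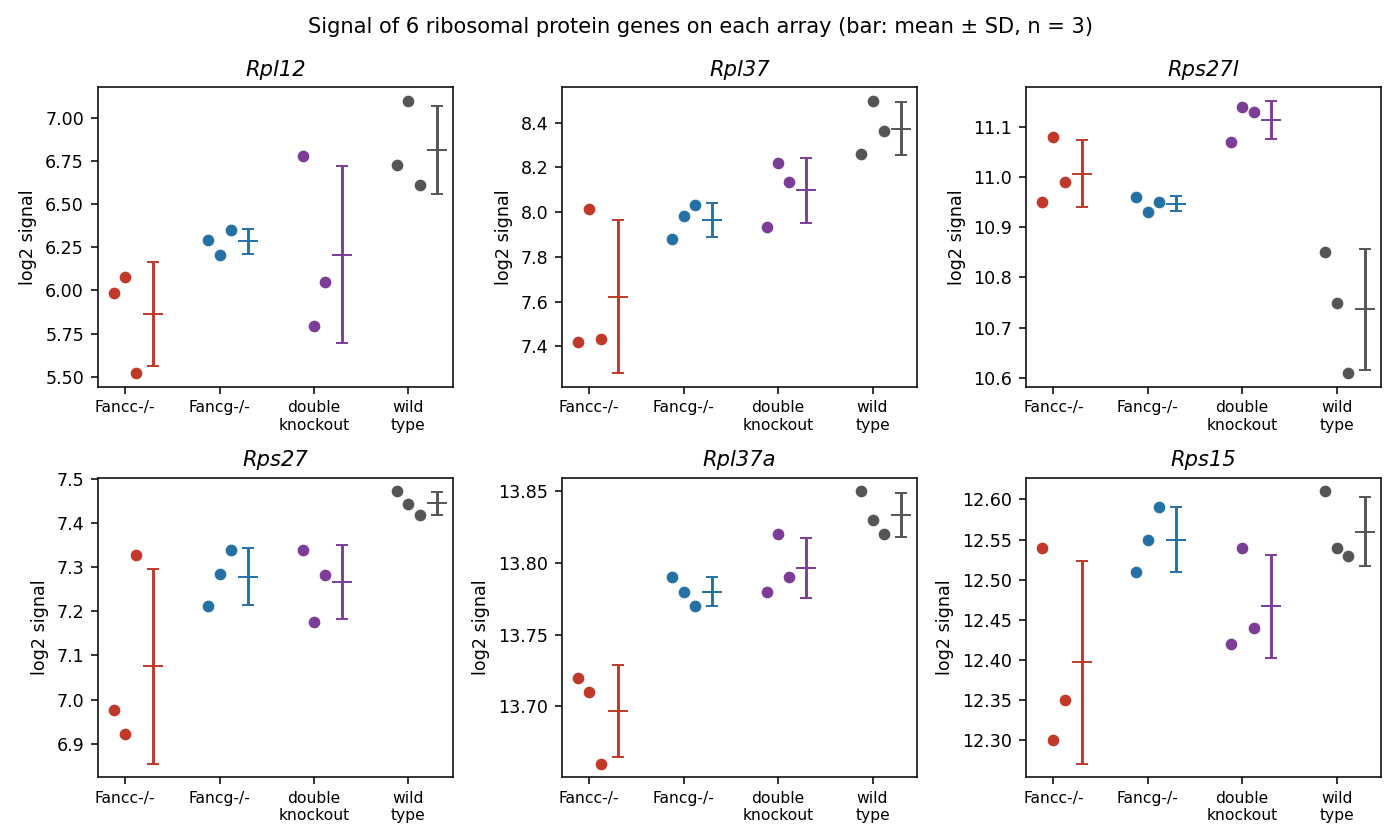
Log2 signal (vertical axis, scaled per gene) of Rpl12, Rpl37, Rps27l, Rps27, Rpl37a and Rps15 on each of 12 arrays, with group mean ± SD of 3 mice beside the points. Rps27l lies higher on all 9 arrays labelled as knockouts than on all 3 wild-type arrays, and Rpl37, Rps27 and Rpl37a lie lower.

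Further Fancc-/- values were close to the threshold or separated without passing it. Rpl37a, another zinc-binding protein of the large subunit, read 13.72, 13.71 and 13.66 in Fancc-/- mice, 13.79, 13.78 and 13.77 on the arrays labelled Fancg-/-, and 13.78, 13.82 and 13.79 in the double knockout, against 13.85, 13.83 and 13.82 in wild type. The Fancc-/- difference of -0.13 ± 0.041 (SE) had a limma adjusted p of 0.0859. Rps27, a zinc-binding protein of the small subunit, read 6.98, 6.92 and 7.33 in Fancc-/- mice, 7.21, 7.28 and 7.34 on the arrays labelled Fancg-/-, and 7.34, 7.18 and 7.28 in the double knockout, against 7.47, 7.44 and 7.42 in wild type. Its Fancc-/- difference was -0.37 ± 0.13 (SE, limma adjusted p = 0.126), and without Fancc-/- array 3 it was -0.50 (0.0311). Rplp2, an acidic stalk protein that helps to recruit elongation factors, read 13.09, 13.17 and 13.07 in Fancc-/- mice, against 13.33, 13.23 and 13.24 in wild type. Its difference was -0.16 ± 0.053 (SE, limma adjusted p = 0.124).

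On the higher side of the Fancc-/- comparison, differences were 0.27 for Rps27l (limma adjusted p = 0.103), 0.18 for Rpl27a (0.481), 0.077 for Rpl22 (0.504), 0.055 for Rps2 (0.65) and 0.14 for Rps25 (0.652). Fancc-/- and wild-type arrays did not overlap for 11 genes. Rps27l lay above wild type (1 of 45, where 11.1% of all genes did). Rpl37, Rpl12, Rpl37a, Rplp2, Rps27, Rps4x, Rpl13a, Rps29, Rps7 and Rpl7a lay below it (10 of 45, where 13.1% of all genes did).

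One further fall, on a second probe set of Rps15, did not depend on any single array. Of the 105 single-gene probe sets, 91 were tested, and in Fancc-/- marrow 2 fell and 0 rose (3.27% of all probe sets tested were called, 1.73% lower). Besides Rpl37 this was the second probe set of Rps15, a small-subunit protein needed for export of its subunit from the nucleus. It read 12.09, 11.79 and 11.60 in Fancc-/- mice, 12.25, 12.36 and 12.31 on the arrays labelled Fancg-/-, and 12.16, 12.37 and 12.21 in the double knockout, against 12.48, 12.45 and 12.42 in wild type. Every Fancc-/- value was below every value of the other genotypes. Its difference was -0.62 ± 0.10 (SE, limma adjusted p = 0.00909), while the brighter Rps15 probe set differed by -0.16 (0.232 in the same fit). This call was kept in all 12 fits that left out 1 array, with differences of -0.75 to -0.51 and limma adjusted p between 0.00504 and 0.0442. The single-gene probe set of Rpl37 kept its call in 4 of these 12 fits of probe sets, with limma adjusted p of up to 0.133 (without wild-type array 2).

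Rpl22 and Rpl41, both of the large subunit, also had probe sets with differences of unlike size. The dimmest Rpl22 probe set read 7.88, 8.08 and 6.23 in Fancc-/- mice, against 8.62, 8.56 and 8.41 in wild type, a difference of -1.13 (limma adjusted p = 0.122). Array 3 was far below the other Fancc-/- arrays. The brightest Rpl22 probe set differed by 0.077. The dim pair of Rpl41 probe sets differed by -0.90 and -1.01 in Fancc-/- marrow (limma adjusted p = 0.112 and 0.162) and by -0.95 and -1.22 in the double knockout (0.0787 and 0.0799). The bright pair differed by -0.10 and -0.18 in Fancc-/- marrow and by 0.065 and 0.023 in the double knockout. On the arrays labelled Fancg-/- 0 single-gene ribosomal protein probe sets passed (0.0466% of all probe sets tested, 0.0127% higher and 0.0339% lower). Of the 110 probe sets listing several genes, 103 were tested. In Fancc-/- marrow 2 of them fell, where 1.73% of all probe sets tested were called lower. They were one listing Rps12 (-0.33, limma adjusted p = 0.0335) and one listing Rps13 (-0.37, 0.0344). They kept their calls in 5 and 4 of the 12 fits without 1 array, and both lost them without any one wild-type array (limma adjusted p of 0.0768 to 0.117 and 0.0877 to 0.103) and with arrays centred on their medians (0.101 and 0.0911). With the replicate number as a block, a pairing that the labels do not give, the call on the Rps13 probe set was lost (limma adjusted p = 0.0568). These 2 were named after their values were seen.

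**Figure D3:**
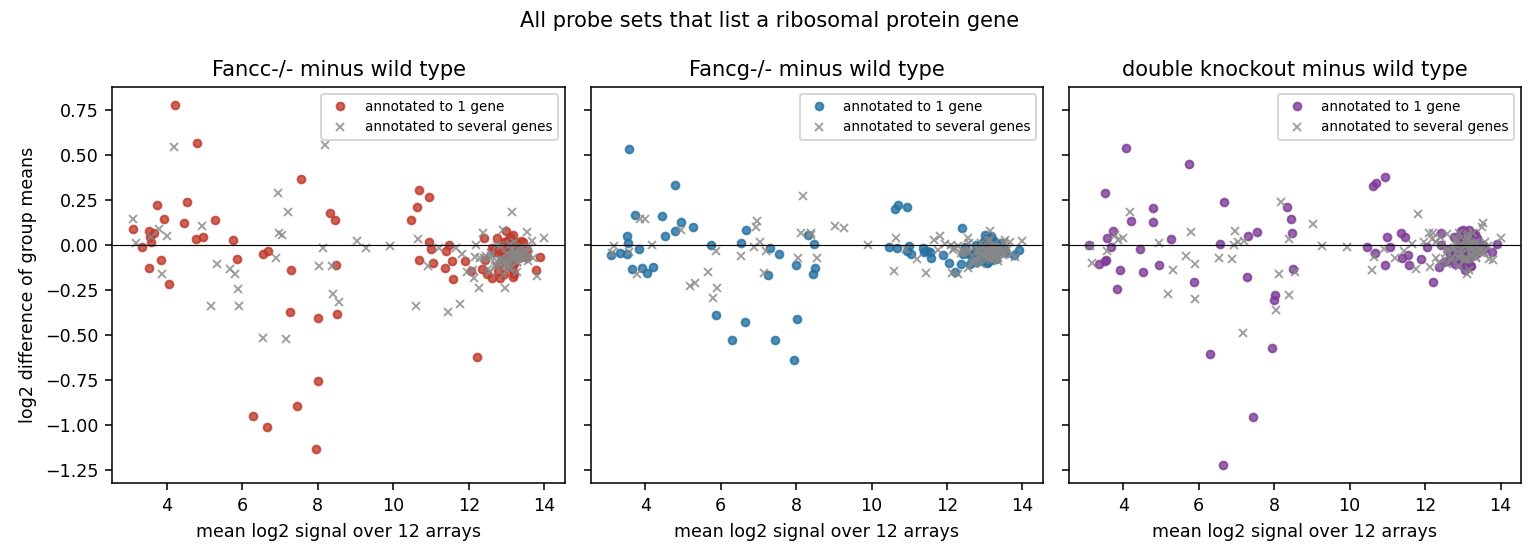
Mean log2 signal over 12 arrays (horizontal axis) against the log2 difference from wild type (vertical axis) for every probe set that lists a ribosomal protein gene, in Fancc-/-, Fancg-/- and double-knockout marrow. Circles are annotated to 1 gene (105) and crosses to several (110). At means of 10 or more, single-gene differences stay between -0.62 and 0.31 in Fancc-/- marrow, and differences below -0.80 lie at dim probe sets.

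On the arrays labelled Fancg-/-, 0 of the 45 genes passed the threshold, where 0.0504% of all genes did. At an unadjusted limma p below 0.05 the count was 3, where 7% of all genes reached it. The median difference was -0.026, beside 0.0093 for all genes, with 30 below 0 and 15 above (52.3% of all genes were above 0). It was 0.0095 with arrays centred on their medians, which moves the median of all genes by the same amount. The median size was 0.033, beside 0.12 for all genes. It was 0.030 among the 36 bright genes and 0.12 among the 9 dim ones. The smallest p-values after Rpl37 (-0.41) and Rpl12 (-0.53) on the lower side belonged to Rpl13a (-0.10, limma adjusted p = 0.834), Rpsa (-0.091, 0.883) and Rpl37a (-0.057, 0.89). On the higher side they belonged to Rps27l (0.21, 0.645), Rpl35 (0.047, 0.954), Rpl41 (0.034, 0.98), Rpl27a (0.057, 0.987) and Rpl22 (0.026, 0.987). Arrays labelled Fancg-/- lay wholly above wild type for 2 genes, Rps27l and Rpl41 (8.68% of all genes). They lay wholly below it for 8, Rpl37, Rpl12, Rpl13a, Rpsa, Rpl37a, Rps27, Rpl38 and Rps4x (8.61%). The median was -0.041 with array 2 as the only one of this group kept, a value with no replicate.

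In the double knockout 1 of the 45 genes rose, Rps27l, and 0 fell. Over all genes tested, 5.28% were called in this comparison, 2.27% higher and 3.02% lower. The median difference was -0.014, beside -0.015 for all genes, with 25 below 0 and 20 above (47.8% of all genes were above 0). It was 0.041 with arrays centred on their medians, which moves the median of all genes by the same amount. At an unadjusted limma p below 0.05 the count was 3 of 45, where 24.2% of all genes reached it. The median size was 0.052, beside 0.18 for all genes. It was 0.043 among the 36 bright genes and 0.18 among the 9 dim ones. Among the 36 bright genes, differences ran from -0.14 to 0.38 and their intervals lay between -0.27 and 0.56.

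Rps27l, a paralog of Rps27 that is known to be induced by the tumour suppressor p53, read 11.07, 11.14 and 11.13 in the double knockout, against 10.85, 10.75 and 10.61 in wild type. The other genotypes lay between, at 10.95, 11.08 and 10.99 in Fancc-/- mice and 10.96, 10.93 and 10.95 on the arrays labelled Fancg-/-. No array labelled as a knockout overlapped the wild-type arrays. The double-knockout difference was 0.38 ± 0.086 (SE, n = 3 each), or 1.3-fold, with a limma adjusted p of 0.0329. Those of Fancc-/- (0.27) and of the arrays labelled Fancg-/- (0.21) did not pass.

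On the remaining probe sets of Rps27l, too, all 9 arrays labelled as knockouts lay above all wild-type arrays. One read 10.72, 10.84 and 10.88 in the double knockout, against 10.49, 10.48 and 10.43 in wild type (difference 0.34, limma adjusted p = 0.0439 among probe sets). This call was kept in 4 of the 12 fits that left out 1 array (limma adjusted p of up to 0.181). With the replicate number as a block it was lost (0.0671). The other probe set read 10.69, 10.95 and 10.69 in the double knockout, against 10.53, 10.42 and 10.39 in wild type (0.33, 0.0719). In Fancc-/- marrow these probe sets differed by 0.31 and 0.21 and on the arrays labelled Fancg-/- by 0.23 and 0.20. Probe sets of 1 gene share the same RNA and arrays, so they are not replicates. The fit of probe sets called 3.13% of all in the double knockout, 1.5% higher, and 2 of the 91 single-gene ribosomal protein probe sets, both of Rps27l.

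The Rps27l call in the double knockout was lost in 7 of the 12 fits that left out 1 array. These were the fits without wild-type array 1, 2 or 3 (limma adjusted p = 0.0507, 0.101 and 0.119), without array 1 or 2 labelled Fancg-/- (0.0545 and 0.053) and without double-knockout array 2 or 3 (0.123 and 0.133). It was also lost without arrays 1 and 3 labelled Fancg-/- together (0.0778). The difference stayed between 0.31 and 0.44 in all 12. With Xist signal as a covariate it was 0.34 with an adjusted p of 1, and 0 of all genes tested passed between double knockout and wild type in that fit. Xist was 6.00 to 7.39 in the double knockout and 11.30 to 12.23 in wild type, so this covariate nearly coincides with the comparison. That fit therefore cannot decide whether a double-knockout call holds.

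Other double-knockout values with the smallest p were 0.21 for Rpl27a (limma adjusted p = 0.353), 0.078 for Rpl6 (0.42), 0.084 for Rps2 (0.432) and 0.062 for Rpl7a (0.455). On the lower side they were -0.60 for Rpl12, -0.14 for Rpl13a (0.179), -0.28 for Rpl37, -0.12 for X-linked Rps4x (0.352) and -0.097 for Rpsa (0.376). Rpl39, the other X-linked gene, differed by 0.0064. Double-knockout arrays lay wholly above wild type for Rps27l and Rpl7a (2 of 45, where 12.5% of all genes did) and wholly below for Rpl37, Rps27, Rps24, Rpl37a and Rps28 (5 of 45, where 16.9% did).

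Over all 9 arrays labelled as knockouts, which include arrays 1 and 3 labelled Fancg-/- with Fancg signal near wild type, Rps27l alone of the 45 lay above every wild-type array (2.44% of all genes did), and Rpl37, Rpl37a and Rps27 lay below every one (3.7% did). The comparisons with wild type share the same 3 wild-type arrays.

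The knockouts were also compared with each other. Between the double knockout and Fancc-/- mice 0 of the 45 genes passed (0.0084% of all genes did), and 7 had an unadjusted limma p below 0.05 (19.7% of all genes). The median difference was 0.052, beside -0.021 for all genes, with 12 below 0 and 33 above (46.8% of all genes were above 0). The smallest p-value was that of Rpl37 (0.48 ± 0.16 SE, limma adjusted p = 0.159), followed by Rpl7a (0.12, 0.198), Rpl41 (0.17, 0.208) and Rpl6 (0.13, 0.211). Double-knockout arrays lay wholly above the Fancc-/- arrays for Rpl7a, Rpl6, Rpl37a, Rpl22l1, Rplp2, Rps29 and Rps7 (7 of 45, where 8.68% of all genes did) and wholly below for 0 (9.1%). These genes and those in the next paragraph were chosen after their values were seen.

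Against the arrays labelled Fancg-/-, the double knockout had 0 genes past the threshold, among the 45 and among all genes (0%), and 0 of the 45 had an unadjusted limma p below 0.05, where 14.4% of all genes did. Rps25 (0.31, limma adjusted p = 0.369) and Rps27l (0.17, 0.397) had the smallest p-values. Groups did not overlap for 6 genes that were higher in the double knockout (Rpl6, Rpl7a, Rpl8, Rplp0, Rps2 and Rps27l; 8.87% of all genes) and for Rps24, which was lower (10.5%). Arrays labelled Fancg-/- against Fancc-/- gave 0 of the 45 (0.109% of all genes) and 0 at an unadjusted limma p below 0.05 (9.05%). They lay wholly above the Fancc-/- arrays for Rpl12, Rpl37a, Rpl7a and Rps7 (4 of 45, 7.16% of all genes) and wholly below for 0 (6.21%). The interaction, the double-knockout difference minus the sum of the single-knockout ones, passed for 0 of the 45 (0.0084% of all genes), with 4 at an unadjusted limma p below 0.05 (14.9%). It was 0.89 ± 0.23 for Rpl37 (SE, limma adjusted p = 0.142), 0.15 for Rpl37a (0.256), 0.87 for Rpl12 (0.26) and 0.17 for Rplp2 (0.309). For these genes, loss of both genes was thus not shown to differ from the sum of the single losses.

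By subunit, the 24 large-subunit genes had median differences of -0.055 in Fancc-/- marrow, -0.0018 on the arrays labelled Fancg-/- and 0.016 in the double knockout. The 21 small-subunit genes had -0.052, -0.032 and -0.039. Rpl12 and Rpl37 belong to the large subunit and Rps27l to the small one. Of the stalk proteins, Rplp0 differed by 0.025, -0.0024 and 0.042 in the same order. Rpl11, which with Rpl5 and ribosomal RNA can bind the p53 regulator Mdm2, differed by -0.14, -0.10 and -0.0093, and the brightest probe set listing Rpl5 differed by -0.072, -0.048 and -0.075.

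Of 19 mouse counterparts of human Diamond-Blackfan anemia genes, 11 were tested, and 0 were called in any knockout against wild type (4.54%, 0.0504% and 5.28% of all genes were). Their medians were -0.024 in Fancc-/- marrow, -0.016 on the arrays labelled Fancg-/- and -0.014 in the double knockout. Rps19, often mutated in that disease, read 12.71, 12.61 and 12.86 in Fancc-/- mice, 12.86, 12.78 and 12.88 on the arrays labelled Fancg-/-, and 12.87, 12.84 and 12.79 in the double knockout, against 12.97, 12.92 and 12.83 in wild type. Its groups overlapped, and the Fancc-/- difference was -0.18 ± 0.071 (SE, limma adjusted p = 0.173). Of the paralogs tested, Rpl22l1 differed by -0.13, -0.013 and 0.071 and Rpl7l1 by -0.11, 0.0071 and 0.070 in the knockouts, in the same order.

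Tested genes with and without a pyrimidine run in the start window are given side by side. Among those in the promoter table, 22 with the run had a median Fancc-/- difference of -0.051 and 18 without it one of -0.059. On the arrays labelled Fancg-/- the medians were -0.0069 with the run and -0.027 without it. In the double knockout the medians were -0.016 and -0.013. Of the genes shown above, Rpl12 has its run within the transcript and Rpl37 has none. The run of Rps27l lies before the first annotated start, and its second start has none.

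Genes that serve the ribosome without the Rpl or Rps names were read for comparison. Of 32 ribosome assembly genes 31 were tested, and 0 passed in Fancc-/- marrow or on the arrays labelled Fancg-/-, with medians of 0.069 and 0.068. Of all genes tested, 4.54% and 0.0504% were called in these comparisons. In the double knockout 1 rose, Nip7 (0.44 ± 0.11 SE, limma adjusted p = 0.0483), an assembly factor of the large subunit, and the median was 0.17. Of all genes tested, 2.27% were called higher there. The mean of the Nip7 probe sets differed by 0.23 (limma adjusted p = 0.186), and with the replicate block the call was lost (0.0724). Nip7 kept its call in 2 of the 12 fits without 1 array, with limma adjusted p of up to 0.191 (without double-knockout array 2). It had 0.43 with an adjusted p of 1 when Xist was a covariate, a fit that cannot decide a double-knockout call. Brix1, another such factor, differed there by 0.42 (0.0527). In Fancc-/- marrow the smallest p-values belonged to Nolc1 (0.36, limma adjusted p = 0.209) and Brix1 (0.26, 0.224). On the arrays labelled Fancg-/- they belonged to Brix1 (0.16) and Nhp2 (0.20, 0.887 each).

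Of 32 translation factors 27 were tested. Of all genes tested, 4.54% were called in Fancc-/- marrow, 0.0504% on the arrays labelled Fancg-/- and 5.28% in the double knockout. In Fancc-/- marrow Eif5, which triggers GTP hydrolysis at the start codon, rose by 0.60 ± 0.10 (SE, limma adjusted p = 0.00794), and Eif4a2, an mRNA helicase, fell by 0.67 ± 0.17 (0.0467). In the double knockout Eif4a2 fell by 0.69 (limma adjusted p = 0.0419), 0 factors rose, and Eif2s2 of the initiator tRNA-binding complex differed by 0.57 (0.0507). Eif5 kept its call in all 12 fits without 1 array (limma adjusted p of up to 0.0443), though the mean of its probe sets differed by 0.26 (0.388). Eif4a2 kept its call in 4 of 12 fits in each of the knockouts, with limma adjusted p of up to 0.184 in Fancc-/- marrow (without wild-type array 2) and 0.176 in the double knockout (without double-knockout array 3). With the replicate block its Fancc-/- call was lost (limma adjusted p = 0.0571). With Xist as a covariate its double-knockout difference was -0.37 (adjusted p = 1), in a fit that cannot decide a double-knockout call. On the arrays labelled Fancg-/- 0 passed, and Eif4a2 differed by -0.54 (limma adjusted p = 0.412) and the elongation factor Eef2 by -0.18 (0.684). Fau, a ribosomal protein gene with another kind of symbol, differed by -0.20 in Fancc-/- marrow (limma adjusted p = 0.0862), -0.17 on the arrays labelled Fancg-/- (0.546) and -0.13 in the double knockout (0.194).

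B cell and erythroid markers had larger differences, with medians of -2.52 and 1.10 in Fancc-/- marrow, -1.49 and 0.69 on the arrays labelled Fancg-/- and -2.26 and 0.56 in the double knockout. The mean signal of the 45 genes was 11.91, 11.88 and 11.85 in Fancc-/- mice, 11.92, 11.90 and 11.96 on the arrays labelled Fancg-/-, and 11.96, 11.96 and 11.94 in the double knockout, against 12.02, 11.97 and 11.92 in wild type. The mean of 11 B cell markers was 6.47, 6.73 and 6.40 in Fancc-/- mice, 6.87, 7.21 and 8.54 on the arrays labelled Fancg-/-, and 6.86, 6.81 and 6.89 in the double knockout, against 9.26, 9.03 and 8.78 in wild type. Of these markers, 9 of 11 fell in Fancc-/- marrow, 0 passed on the arrays labelled Fancg-/-, and 9 fell in the double knockout. The mean of 10 erythroid markers was 11.52, 11.15 and 10.97 in Fancc-/- mice, 10.81, 10.84 and 10.65 on the arrays labelled Fancg-/-, and 11.30, 10.43 and 10.59 in the double knockout, against 10.29, 10.06 and 9.97 in wild type. Of those, 7 of 10 rose in Fancc-/- marrow, 0 passed on the arrays labelled Fancg-/-, and 2 rose in the double knockout. Of 5 T and NK cell markers, 2 fell in Fancc-/- marrow, where their median difference was -0.79, while 0 passed on the arrays labelled Fancg-/- (median 0.037) or in the double knockout (-0.50). None of 7 monocyte and macrophage markers passed in any knockout, with medians of -0.48 in Fancc-/- marrow, 0.11 on the arrays labelled Fancg-/- and 0.20 in the double knockout. The same held for 5 markers of stroma, bone and vessel, with medians of 0.40, 1.15 and 0.27 in that order. The lowest mean of a marker over the 12 arrays was 4.73 in the B cell list and 8.48 in the erythroid list. In whole marrow, fewer cells of a type and less RNA per cell cannot be told apart. Whether the shift of cell types has a part in the values of Rpl12, Rpl37 or Rps27l was not tested.

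**Figure D4:**
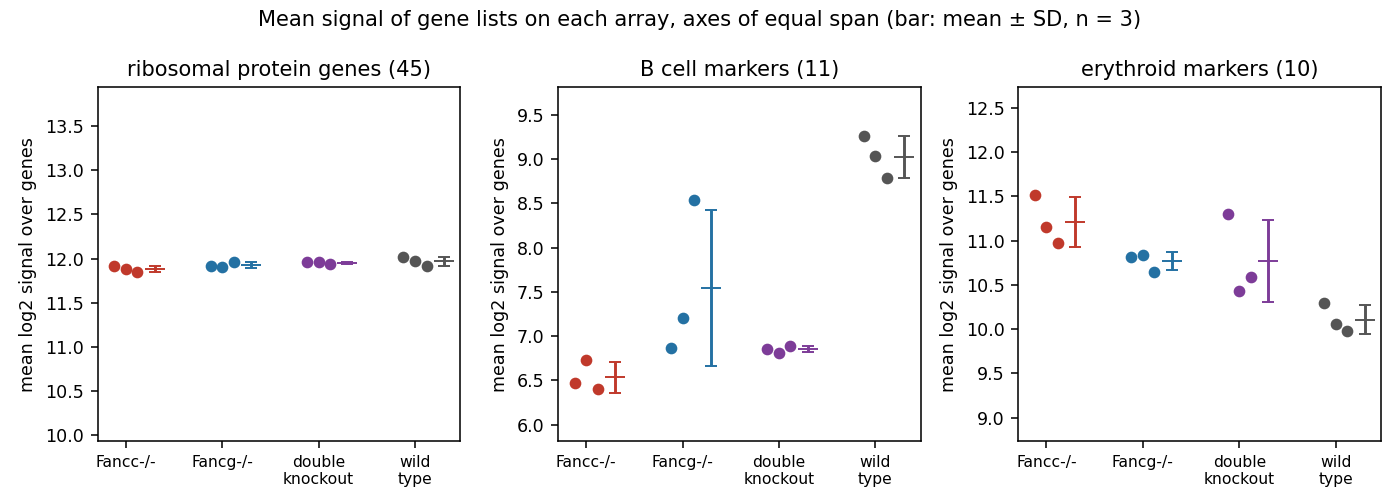
Mean log2 signal (vertical axis, equal span in each panel) of 45 ribosomal protein genes, 11 B cell markers and 10 erythroid markers on each array, with group mean ± SD of 3 mice. The ribosomal protein mean stays between 11.85 and 12.02 on all 12 arrays, while the B cell mean runs from 6.40 to 9.26.

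Genes Rpl39l, Rpl3l, Rps16 and Rps4l were below the filter, with means over the arrays of 3.58, 3.84, 3.74 and 4.06, and were not tested. Rpl39l and Rpl3l are paralogs of Rpl39 and Rpl3. Rps16 is an essential small-subunit gene, and its single-gene probe set lay under the array median in every genotype (3.75 to 3.99 in Fancc-/- mice, 3.70 to 3.90 on the arrays labelled Fancg-/-, 3.39 to 4.07 for double knockouts, where wild-type arrays had 3.43 to 3.73). That is a value of the probe set and does not show that Rps16 RNA was missing.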

How the data were processed

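Deposited were the authors' log2 signals of Affymetrix probe sets. The submitters' processing notes name RMA and Partek, without versions. Per the labels' protocols, mRNA was primed with oligo-dT, amplified and labelled with biotin. The input was 2 µg, except 0.91 µg for Fancg-/- replicate 3. RMA brings arrays to a common distribution, so differences are relative to the other genes. Of 45101 probe sets, 34958 had 1 gene symbol, 932 several and 9211 none. Of those with 1 symbol, 34754 matched the GRCm38.p6 gene table by Entrez ID, and 0 symbols changed. The probe set of highest mean stood for each of 18194 genes, and 11907 were tested, being above the array median on at least 3 arrays.

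One limma model (3.58.1, R 4.3.3) with a variance trend covered the 12 arrays and 7 comparisons, with 8 residual degrees of freedom. Tests were 2-sided. The scripts were tested on simulated data. The small number of arrays, 3 per genotype, limits the precision. Correlations between arrays over the tested genes were 0.954 to 0.993 within genotypes and 0.945 to 0.989 between them. Same-numbered arrays were compared by the correlation of their deviations from the group means. It was 0.146 to 0.159 for the 3 pairs of Fancc-/- and wild type, and the replicate number was therefore also fitted as a block. That choice was read from these same data. The labels name no shared litter or batch, so whether the arrays were paired is not known. No other pair of genotypes had all pairs over 0.1 (over all 18 pairs, the range was -0.365 to 0.195). The ribosomal protein genes, lists and tests were chosen with earlier results of these data known. Named were genes past the threshold, the 5 of smallest p in each direction against wild type, the 5 of largest and of smallest SD, genes too dim to test, and from the related lists those past the threshold or the 2 of smallest p. Alternatives covered the filter, the probe set of a gene, scaling, variance model, array weights, arrays in the fit, replicate number and Xist. Probe sets listing several genes were added as an alternative after seeing the data.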

Additional observations from a re-analysis of the deposited data

Results flagged for a closer look

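Signal appeared in 2 ribosomal protein genes that were too dim to test. Rpl39l, a paralog of Rpl39, read 5.00 on array 2 labelled Fancg-/-, and 3.26 to 3.62 on the other 8 arrays labelled as knockouts, against 3.32 to 3.53 in wild type. Rps4l, a paralog of Rps4x, read 4.88 and 4.99 on double-knockout arrays 1 and 3 and 3.81 on array 2, against 3.82 to 4.12 in wild type. These values exceeded the highest wild-type array by at least 0.5 on the log2 scale. They lie near the array medians of 4.79 to 4.87, and no test was made of them.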

How the results depend on the processing

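Array centring turned the sign of 4 of the small medians of the 45 genes. With arrays centred on their medians, these were 0.023 in Fancc-/- marrow, 0.0095 on the arrays labelled Fancg-/- and 0.041 in the double knockout against wild type, and -0.018 for Fancg-/- against Fancc-/-. That of the interaction stayed positive, at 0.023. Repeated quantile normalization gave 0.015 for the double knockout against Fancc-/-. The medians against wild type therefore have no settled sign on their own. Centring moves the differences of all genes in a comparison by the same amount. Distances from the median of all genes thus stay as they were.

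The 2 calls in Fancc-/- marrow became 1 with plain probe sets only (where Rpl37 has no value), 1 with Xist as a covariate, and 0 with only the arrays compared, without arrays 1 and 3 labelled Fancg-/-, or with probe sets listing several genes included. In that last setting Rpl37 turned to 0.019 (limma adjusted p = 0.852) and Rpl12 had -0.11, because other probe sets then stood for them. Rps27l in Fancc-/- marrow passed with centred arrays (0.35, limma adjusted p = 0.0368) or repeated quantile normalization (0.30, 0.0485). In the same comparison Rpl37a passed with the filter at the percentile 75 (-0.135, limma adjusted p = 0.0418). Rps27 passed there with array weights (-0.445, 0.0391).

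The 1 call in the double knockout became 3 with array weights and 0 with plain probe sets only (where Rps27l has no value), only the arrays compared, the replicate block, Xist as a covariate, or without arrays 1 and 3 labelled Fancg-/-. Xist nearly coincides with that comparison, so the fit with it as a covariate cannot decide the call. Array weights also gave 1 call for the double knockout against Fancg-/- and 1 for the interaction. By their labels same-numbered arrays share only a number, and 3 of all 12 arrays correlated best with their own number. With the replicate block, Rps27l in the double knockout had an adjusted p of 0.0522 in limma. Beside the Rps13 probe set and Eif4a2, the block changed no call named in Fancc-/- marrow, where the count of 2 was kept. The second Rps15 probe set and Rps12 and Rps13 probe sets kept their sign in every alternative fit of probe sets. Rpl12 was below the filter at the percentile 75 and has no value there.

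With each array left out in turn, calls ran from 0 to 2 in Fancc-/- marrow, from 0 to 2 in the double knockout and from 0 to 1 for the interaction, and stayed at 0 in the other comparisons. Medians ran from -0.074 to -0.015 in Fancc-/- marrow, from -0.039 to 0.011 on the arrays labelled Fancg-/- and from -0.038 to 0.020 in the double knockout against wild type. They ran from 0.026 to 0.070 for the double knockout against Fancc-/-, from 0.011 to 0.025 against Fancg-/-, from -0.0014 to 0.036 for Fancg-/- against Fancc-/- and from 0.044 to 0.093 for the interaction. Where not stated, the cause of a change was not tested.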

Other observations

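Array control probe sets give values on RNA and labelling, and their part in the results above was not tested. The 5′ probe set for 18S ribosomal RNA read 12.03, 9.72 and 12.28 in Fancc-/- mice, 12.32, 12.52 and 12.18 on the arrays labelled Fancg-/-, and 12.16, 10.64 and 8.88 in the double knockout, against 9.21, 12.11 and 12.27 in wild type. Low values occurred in 3 of the 4 genotypes. The difference between the 3′ and 5′ probe sets of beta-actin, a mark of RNA integrity, was 0.25, 0.50 and 0.30 in Fancc-/- mice, 0.23, 0.24 and 0.30 on the arrays labelled Fancg-/-, and 0.26, 0.30 and 0.42 in the double knockout, against 0.28, 0.32 and 0.21 in wild type. That of Gapdh lay between -0.12 and 0.25 on all 12 arrays, with the highest value on Fancc-/- array 2, which also had the highest beta-actin value. Each knockout group overlapped wild type in all 3 measures.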
